A study of Mus musculus with 24 samples.

Results

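Teneurins, latrophilins and FLRT proteins are cell-surface molecules that bind each other across contacts between neurons, and the mouse genes that encode them were followed through the cell types of the ventral hippocampus in a pair of inbred strains. The members are the 4 teneurins (Tenm1, Tenm2, Tenm3 and Tenm4), the 3 latrophilins (Adgrl1, Adgrl2 and Adgrl3) and the 3 FLRT genes (Flrt1, Flrt2 and Flrt3). The rule that selects them lists names and uses no measured value, although the list was drawn up with earlier results of these data known. They make up 10 of the 33902 gene symbols that were counted. All 10 had counts in both strains.

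The nuclei came from adult male mice of the strains B6 (C57BL/6J) and D2 (DBA/2J, DBA in the sample labels), aged 10 to 16 weeks, with about 2 animals pooled in each replicate and 2 replicates per strain and assay. No transgene, deletion or treatment is named for either strain, so the groups differ in genotype as whole inbred backgrounds. RNA was read in single nuclei (snRNA-seq) sorted to a set mixture of NeuN-positive, mostly neuronal, and NeuN-negative nuclei, and open chromatin in nuclei sorted without NeuN (snATAC-seq). For each library and cell type the raw counts of all nuclei were summed, giving 17 cell types for RNA and 15 for chromatin, where CR-CR and NN-VLMC are lacking.

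Teneurins are large single-pass membrane proteins with a folded extracellular repeat domain that binds latrophilins on the facing cell and, for several teneurin pairs, another teneurin. Latrophilins are adhesion G protein-coupled receptors, and many sit on the postsynaptic side of excitatory synapses, where they bind teneurins and FLRT proteins together. FLRT proteins carry leucine-rich repeats, bind latrophilins, and also bind the Unc5 family of guidance receptors. In the hippocampus, Tenm3 and Adgrl2 are known for guiding axons of CA1 to their targets, and Adgrl2 and Adgrl3 for marking different inputs onto CA1 dendrites.

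The genes differ widely in size, which matters because reads from introns were counted. On GRCm38, Tenm2 covers chr11:36006656-37235964 (minus strand, 1229 kb), Tenm1 chrX:42527866-43429126 (minus, 901 kb), Adgrl3 chr5:81020138-81825133 (plus, 805 kb), Tenm4 chr7:96171246-96911093 (plus, 740 kb) and Tenm3 chr8:48227682-48843951 (minus, 616 kb). Adgrl2 lies at chr3:148815583-148990555 (minus, 175 kb), Flrt2 at chr12:95692226-95785215 (plus, 93.0 kb), Adgrl1 at chr8:83900105-83941954 (plus, 41.9 kb), Flrt3 at chr2:140650914-140671469 (minus, 20.6 kb) and Flrt1 at chr19:7092001-7105729 (minus, 13.7 kb). Flrt1 lies inside Macrod1 and Flrt3 inside Macrod2, each on the strand opposite to its host, and the antisense transcript Gm15414 lies inside Tenm4.

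Chromatin data bear directly on 3 start sites discussed below, so the 250 bases before each are shown, from RefSeq on GRCm38.p6, written 5′ to 3′ along the strand of the gene with every CG dinucleotide in capitals. The first is the promoter of Flrt3, whose transcripts were lower in D2. The others precede the most upstream annotated start of Tenm4 and the Tenm4 start with the most open peak in the dentate gyrus.
Flrt3, chr2:140671477-140671726, minus strand: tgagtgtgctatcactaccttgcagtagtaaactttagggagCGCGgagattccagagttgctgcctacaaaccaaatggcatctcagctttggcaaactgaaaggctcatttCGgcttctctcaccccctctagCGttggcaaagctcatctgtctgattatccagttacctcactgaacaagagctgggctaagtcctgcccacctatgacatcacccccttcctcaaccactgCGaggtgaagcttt
Tenm4, chr7:96170994-96171243, plus strand: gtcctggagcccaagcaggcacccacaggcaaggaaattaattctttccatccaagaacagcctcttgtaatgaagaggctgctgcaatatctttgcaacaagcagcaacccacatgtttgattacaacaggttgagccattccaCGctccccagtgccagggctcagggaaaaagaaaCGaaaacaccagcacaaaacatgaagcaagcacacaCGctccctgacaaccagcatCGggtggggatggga
Tenm4, chr7:96211421-96211670, plus strand: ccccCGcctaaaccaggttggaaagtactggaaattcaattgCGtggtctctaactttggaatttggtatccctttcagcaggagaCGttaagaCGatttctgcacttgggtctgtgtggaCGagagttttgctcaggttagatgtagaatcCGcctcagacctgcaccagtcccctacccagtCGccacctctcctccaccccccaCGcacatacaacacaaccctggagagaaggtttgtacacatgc
The Flrt3 window holds 5 CG dinucleotides and 50.0% G or C, and 55.6% of 32851 RefSeq promoter windows of the same length hold at least as many CG. The upstream Tenm4 window holds 4 (50.8% G or C, with 62.2% of windows holding as many), and the downstream one 8 (51.6%, with 43.0%).

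Total counts per snRNA-seq library were between 43048686 and 56452272, from 6312 to 8707 nuclei, and the sum for a single cell type in a library ran from 139713 (CR-CR) to 11352265 (Exc-DG). Of 14 lists of 3 marker genes, 12 were highest in the cell type they name. The dentate granule and Lamp5 interneuron lists were highest in CR-CR, the Cajal-Retzius cluster, which held only 45 to 171 nuclei per library. The Lamp5 list shares the gene Ndnf with the Cajal-Retzius list. In CR-CR the summed Cajal-Retzius markers were 6990 CPM (counts scaled to the library total) in B6 and 2994 in D2, while astrocyte markers were 172 and 382 and dentate granule markers 258 and 530. These shifts touch every CR-CR value given here, and their part in those values was not tested.

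The teneurins were mostly neuronal, but each had its own order of cell types. The levels that follow are means ± SD over the 4 libraries in CPM within each cell type, and they are descriptions with no test, because the cell types were defined from the same nuclei. Neighbours in an order are called apart only where the 4 library values of each do not overlap.

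**Figure D1:**
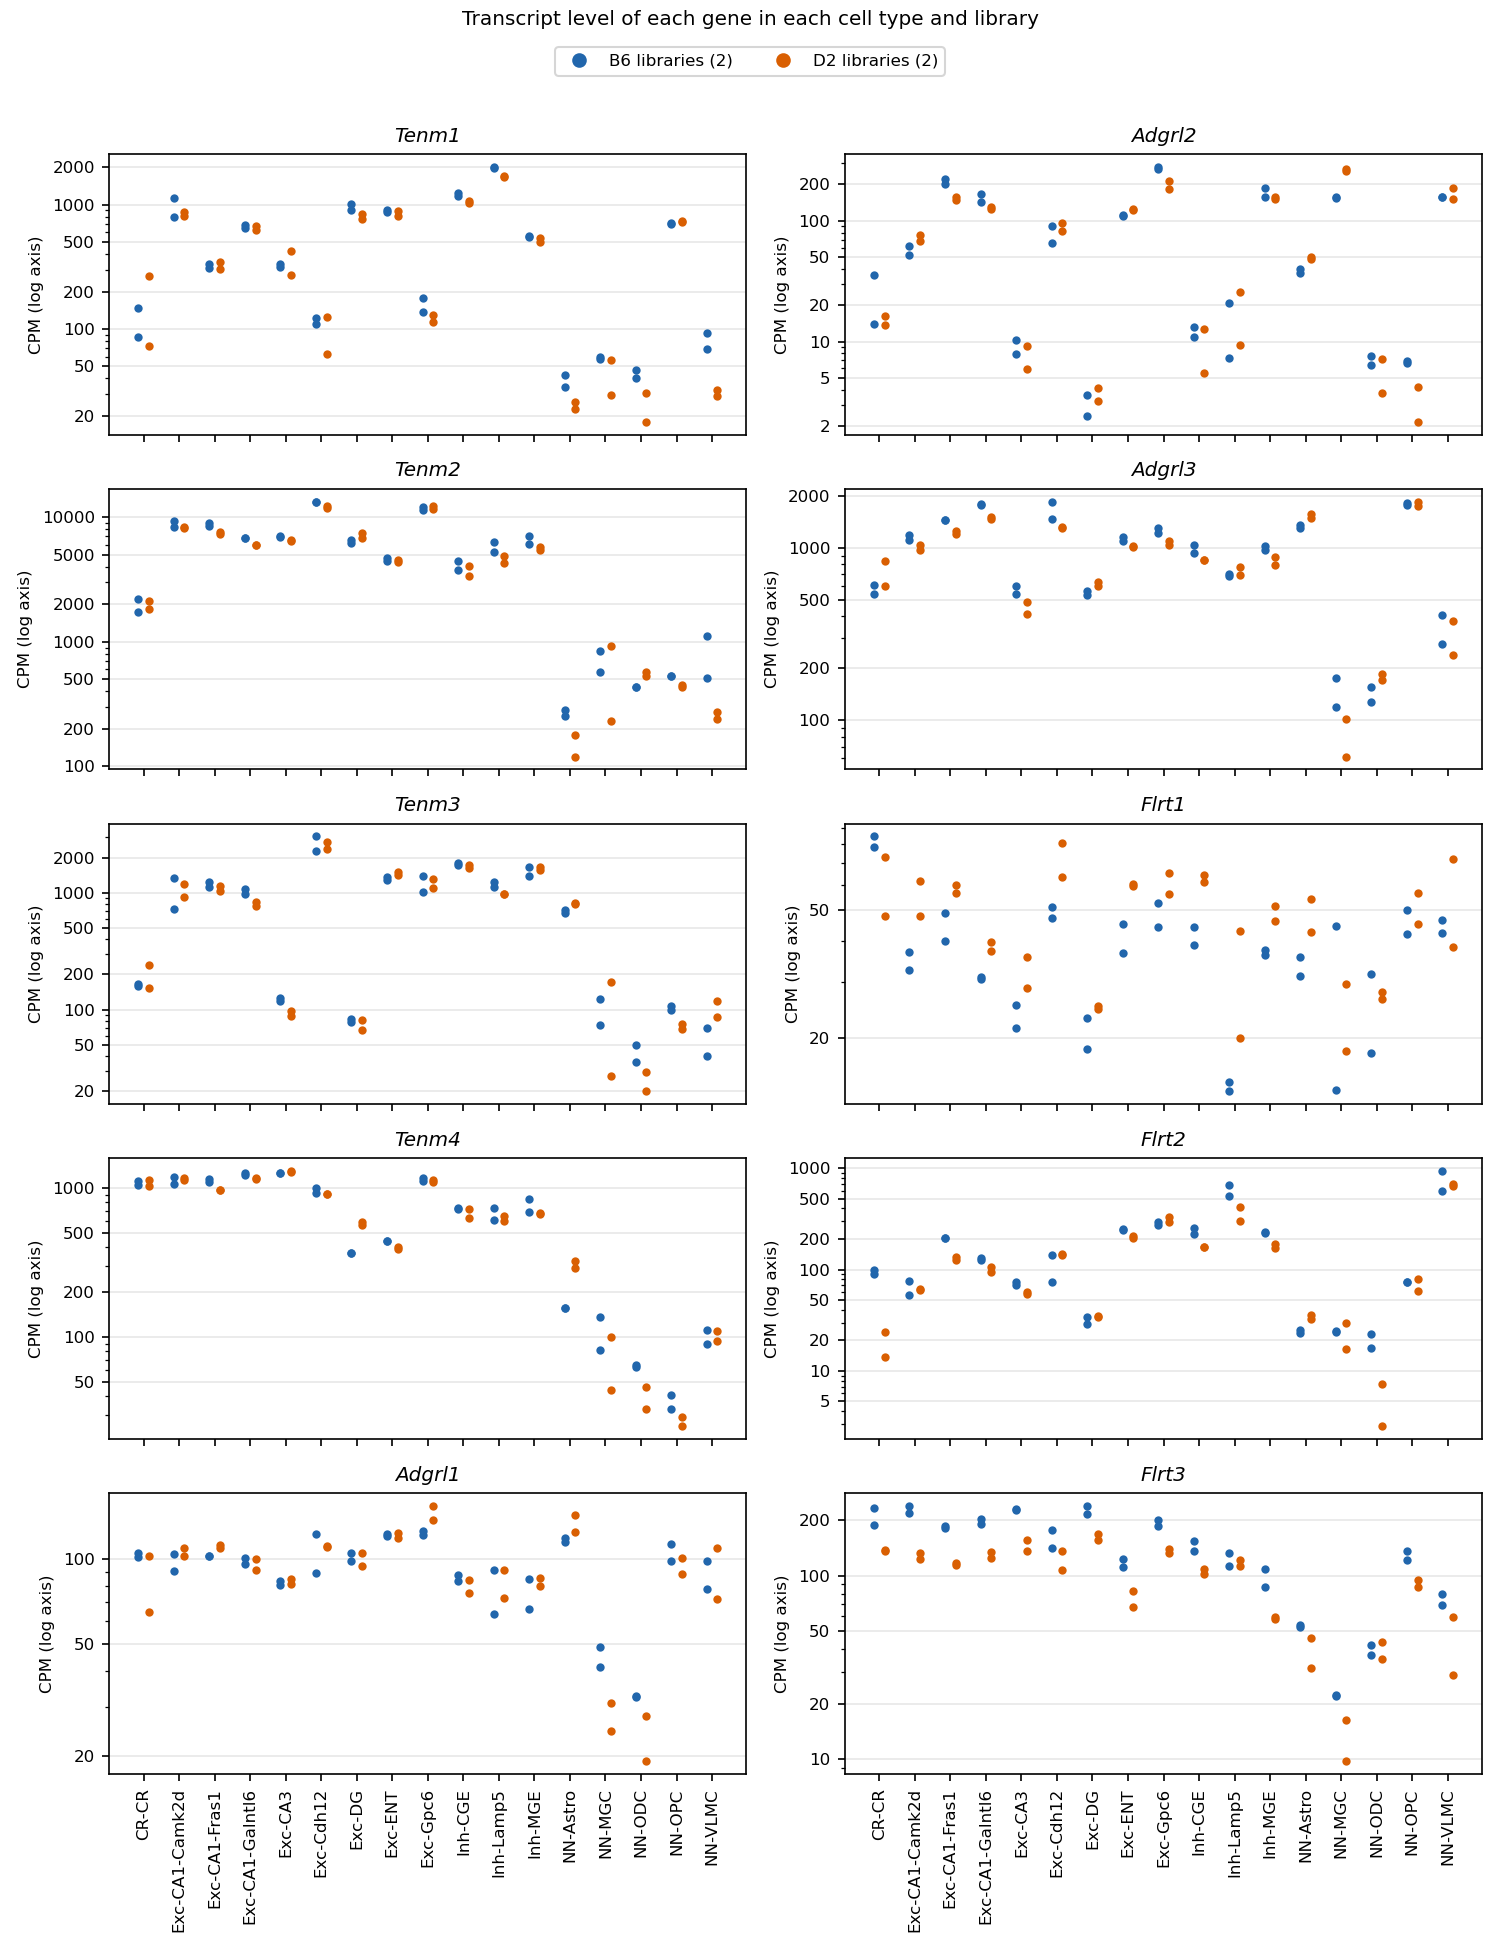
Transcript level in CPM (log axis) of each of the 10 genes in the 17 cell types, with a point for each of the 2 B6 libraries (blue) and 2 D2 libraries (orange). Tenm2 sits at 1724 CPM or more in every neuronal type and Adgrl2 below 5 CPM in Exc-DG, while Flrt3 points of D2 lie under those of B6 in most cell types.

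Tenm1, an X-linked teneurin, was highest in Lamp5 interneurons (Inh-Lamp5, 1843 ± 183 CPM, n = 4), apart from Inh-CGE at 1129 ± 99.7. Exc-CA1-Camk2d, Exc-DG and Exc-ENT followed at 907 ± 160, 887 ± 108 and 871 ± 38.0 with overlapping libraries. Oligodendrocyte precursors (NN-OPC) held 720 ± 22.5 CPM, which no other non-neuronal type approached: NN-VLMC was next at 56.0 ± 30.8 and NN-Astro lowest at 31.4 ± 8.95, a ratio of 58.6 from top to bottom.

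Tenm2 had the most counts of the family (1204490 over all nuclei) and gave the largest share of summed teneurin counts in every cell type except astrocytes and oligodendrocyte precursors. It was highest in Exc-Cdh12 (12660 ± 684 CPM) and Exc-Gpc6 (11901 ± 422), which overlapped, and both stood apart from Exc-CA1-Camk2d at 8593 ± 496. Exc-DG (6758 ± 534) and Exc-CA3 (6768 ± 314) did not differ beyond their spread. The lowest level was in astrocytes, at 209 ± 73.7 CPM.

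Tenm3 divided the principal neurons of the hippocampus. It reached 1135 ± 82.6 CPM in Exc-CA1-Fras1, 1040 ± 270 in Exc-CA1-Camk2d and 914 ± 137 in Exc-CA1-Galntl6, but 107 ± 17.0 in Exc-CA3 and 77.6 ± 6.93 in Exc-DG. The peak was in Exc-Cdh12 (2589 ± 348), followed by Inh-CGE (1727 ± 71.9). Astrocytes held 752 ± 70.3 CPM, where Tenm3 made up 61.5% of summed teneurin counts, while oligodendrocytes (NN-ODC) held 33.7 ± 12.4.

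Tenm4 was nearly level across CA3 and CA1 clusters, from Exc-CA3 (1272 ± 17.0 CPM) through Exc-CA1-Galntl6 (1195 ± 50.1) to Exc-CA1-Fras1 (1045 ± 96.2). Each neighbour in that order, which also takes in Exc-Gpc6 and CR-CR, overlapped the next. Exc-ENT held far less, at 417 ± 25.2. Exc-DG held 469 ± 121, a spread that the strains set, as described below. Oligodendrocyte precursors were lowest at 32.1 ± 6.76, so the precursors ranked 6 of 17 for Tenm1 and last for Tenm4.

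Among the latrophilins, Adgrl1 varied little, between 134 ± 14.6 CPM in Exc-Gpc6 and 28.0 ± 6.24 in oligodendrocytes, a ratio of 4.79. Adgrl2 was the opposite, at 236 ± 44.8 in Exc-Gpc6, 211 ± 63.1 in microglia (NN-MGC), 182 ± 35.7 in Exc-CA1-Fras1, 164 ± 16.3 in Inh-MGE and 163 ± 15.4 in NN-VLMC, but 8.35 ± 1.86 in Exc-CA3 and 3.35 ± 0.709 in Exc-DG. The libraries of Exc-DG held 25, 41, 29 and 33 Adgrl2 counts, and the share of these that free RNA could give was not estimated. Interneuron classes also parted on it, since Inh-CGE held 10.6 ± 3.50 CPM against the 164 of Inh-MGE.

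Adgrl3, the latrophilin with the most counts, was highest in oligodendrocyte precursors (1793 ± 39.9 CPM) and Exc-CA1-Galntl6 (1644 ± 170), whose libraries overlapped, and was 1427 ± 119 in astrocytes. Exc-DG (579 ± 43.5) and Exc-CA3 (508 ± 79.8) held less than the 3 CA1 clusters, which ranged from 1075 ± 95.8 to 1644. Microglia were lowest, at 114 ± 47.2. Across the 17 cell types Adgrl1 and Adgrl3 had a Pearson correlation of 0.85 on log2(CPM + 1), and Adgrl2 and Adgrl3 one of 0.09. These points share libraries and depth, so the values are given as descriptions.

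Of the FLRT genes, Flrt1 was low and flat, from 70.9 ± 16.2 CPM in CR-CR to 22.9 ± 13.7 in Inh-Lamp5, with no neighbours apart. Flrt2 was highest outside neurons, in vascular and leptomeningeal nuclei (NN-VLMC, 720 ± 147), then in Inh-Lamp5 (477 ± 160), and was 33.0 ± 2.54 in Exc-DG. Flrt3 was highest in Exc-DG (196 ± 39.7), followed by Exc-CA3 (188 ± 48.4) and Exc-CA1-Camk2d (179 ± 59.0) with overlapping libraries, and lowest in microglia (17.7 ± 5.94). Dentate granule neurons combined the highest Flrt3 with low Flrt2, Tenm3 and Adgrl2. Exc-CA3, whose Flrt3 libraries overlapped theirs, was similar, with 65.2 CPM of Flrt2, 107 of Tenm3 and 8.35 of Adgrl2.

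Levels of different genes are set side by side per kb of gene span, since introns were counted, and whether counts of these 3′ libraries scale with the span was not tested. In CPM per kb of gene span, the highest cell type of Tenm2 reached 10.3, that of Flrt3 9.51, that of Flrt2 7.75 and that of Flrt1 5.17. Tenm3 reached 4.20, Adgrl1 3.21, Adgrl3 2.23, Tenm1 2.04, Tenm4 1.72 and Adgrl2 1.35. The order of cell types also depends on the scale. As counts per nucleus, only 4 of the 10 members kept their top cell type, because neurons gave up to 12182 counts per nucleus and microglia as few as 1780. On that scale Adgrl1, Adgrl2 and Flrt1 were highest in Exc-CA1-Fras1, Adgrl3 in Exc-CA1-Galntl6, Flrt2 in Inh-Lamp5 and Flrt3 in Exc-CA3. With TMM scaling (trimmed mean of M-values) over all columns together, 7 kept their top cell type, while that of Tenm2 became Exc-Gpc6, that of Adgrl3 Exc-CA1-Galntl6 and that of Flrt1 Exc-Cdh12.

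The transcripts whose levels were most like those of a member over the 17 cell types were in several cases its own neighbours. Among 11073 symbols, Flrt3 was most like its host Macrod2 (Pearson r = 0.96) and Cpt1c (0.96), Flrt1 most like its host Macrod1 (0.93) and Bmper (0.84), and Tenm4 most like the antisense transcripts Gm15414 (0.99) and Gm15413 (0.98). Whether the counting used strand is not given in the sources used here, and whether reads of such overlapping pairs were kept apart was not tested. The closest for the other teneurins and the latrophilins were Zscan18 and 4930588J15Rik for Tenm1 (0.93 and 0.90), Olfr55 and Dmtn for Tenm2 (0.97 and 0.97), Gm48321 and Gpr162 for Tenm3 (0.85 and 0.85), Dclk1 and Wnk2 for Adgrl1 (0.90 and 0.90), Gm30382 and Nat14 for Adgrl2 (0.84 and 0.82), and 4930570B17Rik and Ctnnd2 for Adgrl3 (0.93 and 0.92).

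The strain comparison asks which members differed between D2 and B6 within a cell type. It used edgeR's quasi-likelihood test on the 2 libraries of each strain, with Benjamini-Hochberg adjusted p under 0.05 over all transcripts of that cell type as the threshold, and fold changes below are D2 against B6. Of 170 pairs of a member and a cell type, 168 passed the filter on low counts (Adgrl2 did not in CR-CR and NN-OPC), and 58 were called, 15 higher and 43 lower in D2. Over all transcripts with counts in both strains, 7.22% of such pairs were higher in D2 and 9.31% lower. Those shares take in transcripts of every level and were not matched to the members for their counts. The 2 libraries of one strain lay above the 2 of the other in all 58 called pairs, which selection on the same values makes likely. No called pair changed sign in any alternative run, but those runs refit the same libraries, so neither count is separate support.

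**Figure D2:**
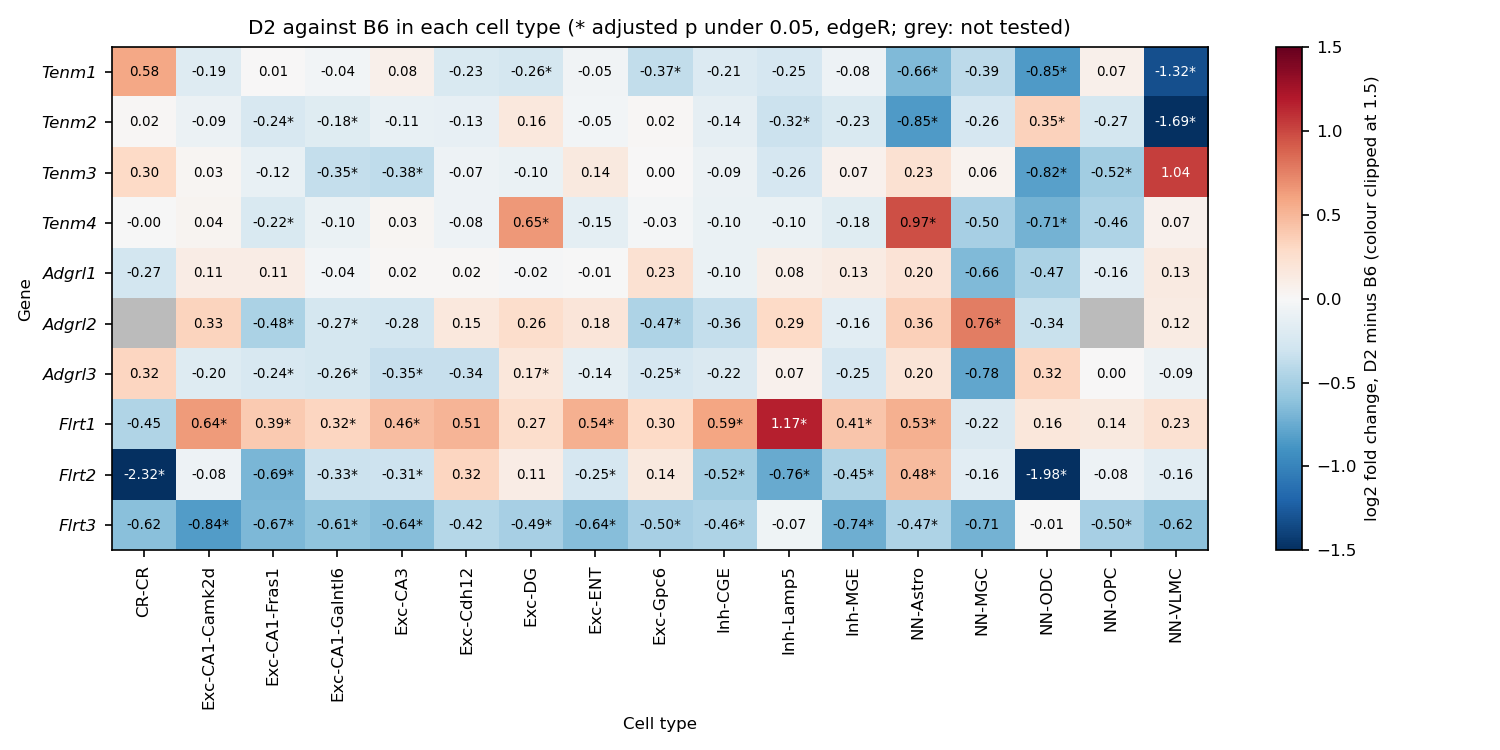
Log2 fold change of D2 against B6 for each gene (vertical) in each cell type (horizontal), with colour clipped at 1.5 and an asterisk where the edgeR adjusted p was under 0.05. Flrt3 is negative in 17 of 17 cell types and Flrt1 positive in 15, while Tenm4 is positive with an asterisk only in Exc-DG (0.65) and NN-Astro (0.97).

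Calls were not spread evenly over cell types, and neither were calls of other transcripts. In the neurons with most counts, 7 of 10 members were called in Exc-CA1-Galntl6 (where 27.6% of transcripts were), 7 in Exc-CA1-Fras1 (22.0%), 5 in Exc-CA3 (25.0%), 4 in Exc-DG (28.0%) and 3 in Exc-ENT (21.6%). The remaining excitatory types gave 4 in Exc-Gpc6 (14.6%), 2 in Exc-CA1-Camk2d (12.6%) and 0 in Exc-Cdh12 (4.65%), where 3 had an unadjusted edgeR p under 0.05 and DESeq2 called 0. Interneurons gave 3 each in Inh-MGE (14.1%), Inh-CGE (10.1%) and Inh-Lamp5 (8.5%). Among other cells, 6 were called in astrocytes (21.2%), 5 in oligodendrocytes (15.7%), 2 of 9 in NN-OPC (12.5%), 2 in NN-VLMC (6.22%), 1 in NN-MGC (8.21%) and 1 of 9 in CR-CR (2.63%).

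Flrt3 gave the broadest difference of the family. In dentate granule neurons the B6 libraries held 218 and 240 CPM and the D2 libraries 168 and 156. In Exc-CA1-Camk2d the values were 240 and 218 in B6 against 123 and 134 in D2, and in Inh-MGE 86.4 and 109 against 58.1 and 59.3. The strains did not overlap in any of these. The log2 fold changes were -0.49 ± 0.0763 (SE, adjusted p = 1.09e-04), -0.84 ± 0.120 (1.92e-04) and -0.74 ± 0.132 (4.50e-04).

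Flrt3 was lower in D2 in 11 of 17 cell types, which comprise 7 of 8 excitatory types, Inh-CGE, Inh-MGE, astrocytes and oligodendrocyte precursors, and its fold change was negative in all 17 (median -0.61). Of 4995 transcripts tested in every cell type, 3.36% were lower in D2 in at least 11 of them. Its value was smallest in oligodendrocytes (-0.01) and in Inh-Lamp5 (-0.07), where the libraries overlapped (113 and 132 CPM in B6, 113 and 122 in D2). The call held under each alternative in Exc-CA1-Camk2d, Exc-CA1-Fras1, Exc-CA1-Galntl6, Exc-CA3, Exc-DG, Exc-ENT, Exc-Gpc6 and Inh-MGE.

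The host of Flrt3 moved less. Macrod2, which encodes an ADP-ribosylhydrolase, was called lower in 7 of 17 cell types, each of them a type in which Flrt3 was lower, with a median log2 fold change of -0.24. In Exc-DG, where Flrt3 fell by 0.49 on the log2 scale, Macrod2 was at -0.02 (adjusted p = 0.836), and in astrocytes at -0.07 (0.628) against -0.47 for Flrt3.

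Flrt1 moved the other way. In Exc-ENT it was at 45.4 and 36.9 CPM in B6 and 59.3 and 60.1 in D2 (log2 fold change 0.54 ± 0.129, adjusted p = 0.00120), and in Inh-CGE at 44.4 and 38.9 against 61.2 and 64.1 (0.59 ± 0.169, adjusted p = 0.0225). It was called higher in 9 of 17 cell types and lower in none, and 2.66% of the 4995 transcripts were higher in at least 9. Its levels were low, and the calls depended on the tool: DESeq2 called Flrt1 in 0 of 17 types (adjusted p from 0.0912 to 0.716 in the 9), and leaving out single libraries left 2 to 6. Its host Macrod1 was higher in Inh-Lamp5 and astrocytes and lower in Exc-CA3 (-0.33), where Flrt1 was higher (0.46).

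Flrt2 was lower in D2 in 9 cell types and higher in 1, with 5.37% of the 4995 transcripts lower in at least 9. In Exc-CA1-Fras1 the libraries held 207 and 206 CPM in B6 and 132 and 125 in D2 (-0.69 ± 0.0920, adjusted p = 2.23e-06). In Inh-Lamp5 they held 525 and 674 against 411 and 299 (-0.76 ± 0.144, 2.51e-04). All 3 interneuron types were lower, with Inh-CGE at -0.52 and Inh-MGE at -0.45.

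Outside those neurons Flrt2 was uneven. In oligodendrocytes it was at 33 and 62 counts in B6 and 10 and 4 in D2 (-1.98 ± 0.405, adjusted p = 6.36e-04). In CR-CR the counts were 38 and 42 against 3 and 2 (-2.32 ± 0.535, adjusted p = 0.0144), in the cluster whose own markers were lower in D2, and DESeq2 did not call it (0.457). Astrocytes were higher in D2 (25.3 and 23.6 CPM against 32.8 and 35.4, 0.48 ± 0.172, adjusted p = 0.0347), a call lost with DESeq2 (0.414). Exc-DG, with 29.2 and 34.1 CPM in B6 and 34.4 and 34.3 in D2, was not called. Inside Flrt2 and on its strand, the transcripts Gm48014 and Gm48015 had 0 counts in B6 and 75 and 475 in D2, where Flrt2 had 10314, and their part in the Flrt2 values was not tested.

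**Figure D3:**
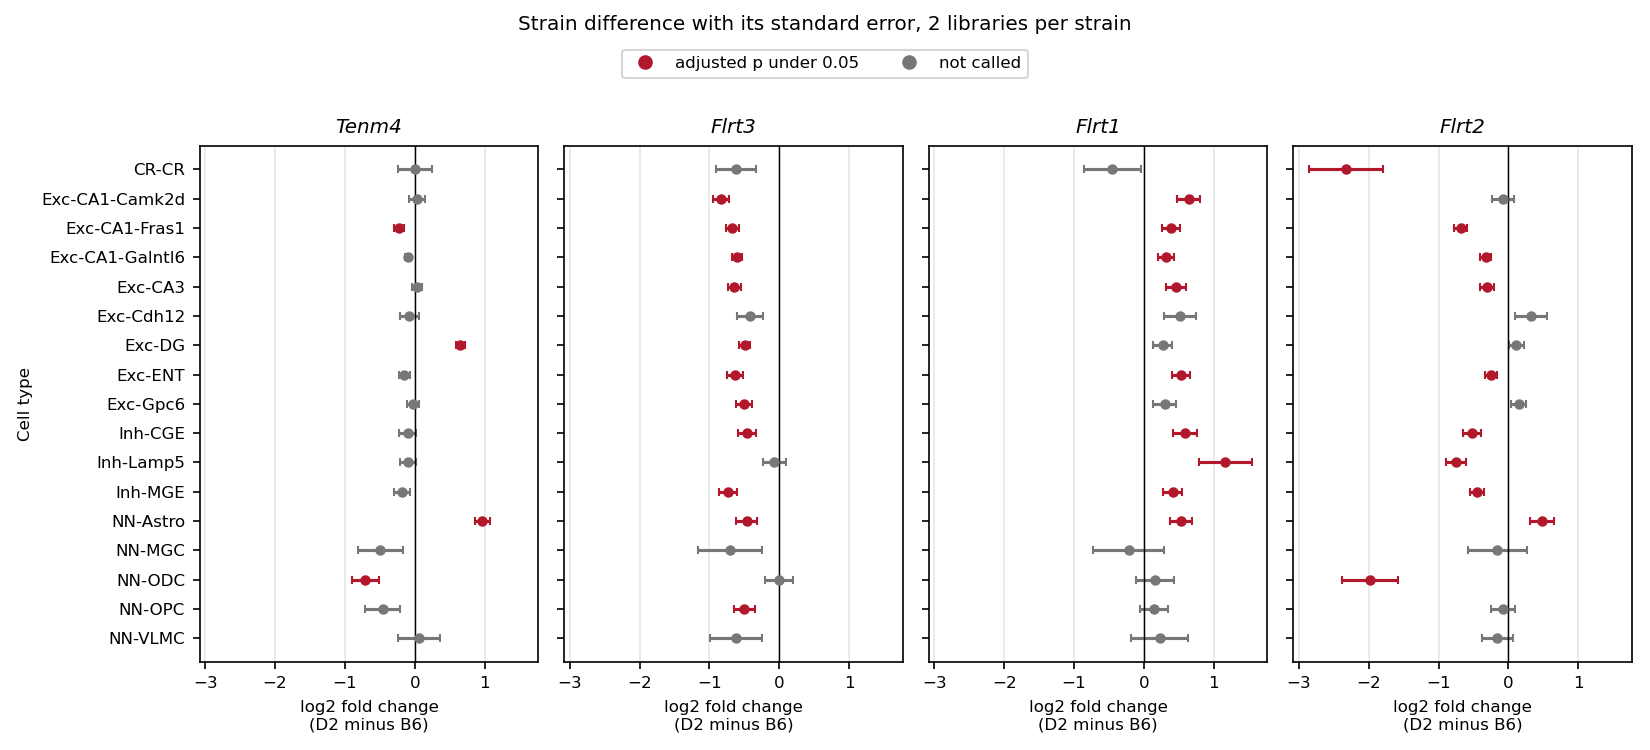
Log2 fold change of D2 against B6 (horizontal) with its standard error for Tenm4, Flrt3, Flrt1 and Flrt2 in the 17 cell types (vertical), red where the edgeR adjusted p was under 0.05. Tenm4 lies near 0 in most types and at 0.65 and 0.97 in Exc-DG and NN-Astro, whereas Flrt3 lies at or below 0 throughout.

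Tenm4 differed in a few cell types only, and with precise values. In Exc-DG it was at 364.7 and 364.8 CPM in B6 and 586.9 and 559.8 in D2, a log2 fold change of 0.65 ± 0.0636 (adjusted p = 1.32e-06). In astrocytes it was at 155.8 and 156.1 in B6 and 288.2 and 321.4 in D2 (0.97 ± 0.102, 5.32e-10). Both calls held in each alternative. In both types the antisense transcript Gm15414 was also higher, by 0.74 and 1.17 on the log2 scale, and it was called in no other of the 15 types in which it was tested. The 2 other opposite-strand transcripts of Tenm4 that were tested were not called in either type. Gm15413 was at 0.11 (adjusted p = 0.667) in Exc-DG and 0.55 (0.341) in astrocytes and was lower in 6 of 13 types, and C230038L03Rik was at 0.25 (0.168) and 0.36 (0.194) and lower in 4 of 15.

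Elsewhere Tenm4 was lower in oligodendrocytes (62.8 and 65.0 CPM against 45.8 and 32.9, -0.71, adjusted p = 0.00767) and slightly so in Exc-CA1-Fras1 (-0.22, 0.0165). In the 13 cell types with no call its fold changes lay between -0.50 and 0.07. Exc-CA3, the type with most Tenm4, held 1255 and 1264 CPM in B6 and 1294 and 1275 in D2.

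Tenm2, the main teneurin of neurons, had its largest strain differences in astrocytes and NN-VLMC. In Exc-CA1-Galntl6 it was lower by 0.18 on the log2 scale (6803 and 6756 CPM against 6019 and 5945, adjusted p = 8.36e-04). Exc-CA1-Fras1 (-0.24, 0.00310) and Inh-Lamp5 (-0.32, 0.0474) were also lower, while NN-OPC (-0.27) and NN-MGC (-0.26) were not called. In astrocytes Tenm2 was at 254 and 282 CPM in B6 and 178 and 120 in D2 (-0.85 ± 0.121, 3.68e-07), and in NN-VLMC at 513 and 1120 against 274 and 238 (-1.69 ± 0.258, 4.64e-06). Oligodendrocytes were the only type called higher, at 434 and 437 against 535 and 571 (0.35, 0.0278), a call that 3 of 9 alternatives, DESeq2 among them, did not keep.

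As a rough guide to neuronal RNA in the non-neuronal columns, 15 neuronal markers were summed in each. What share of such a sum is neuronal RNA was not tested. In NN-OPC it was 515 CPM in B6 and 525 in D2, beside 837 and 845 in Inh-MGE. In astrocytes the sums were 217 and 227 CPM in B6 and 214 and 211 in D2, with no marker at 0, and in oligodendrocytes their means were 375 and 382. In NN-VLMC the sums were 200 and 343 against 218 and 235, and the library with most Tenm2 was the one with most neuronal markers. The part of neuronal RNA in the NN-VLMC difference was not tested.

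Tenm1 was lower in D2 in 5 cell types. In Exc-DG the libraries were at 1022 and 915 CPM in B6 and 844 and 768 in D2 (-0.26 ± 0.0715, adjusted p = 0.00968), and Exc-Gpc6 was at -0.37. The 3 glial and vascular calls rest on few counts, with 20 and 31 in B6 against 17 and 8 in D2 in NN-VLMC (-1.32). DESeq2 called Tenm1 in 1 type, and edgeR without B6 library 2 also in 1.

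Tenm3 was lower in Exc-CA1-Galntl6 (1072 and 978 CPM against 766 and 841, -0.35 ± 0.0601, adjusted p = 1.83e-04) and in Exc-CA3 (125 and 119 against 97.4 and 89.0, -0.38 ± 0.0933, 0.00409). Both calls held in each alternative. It was also lower in oligodendrocytes (-0.82) and their precursors (-0.52), calls that 3 of 9 alternatives each did not keep. It was called higher in no cell type with all 4 libraries, but NN-VLMC was at 1.04 (adjusted p = 0.0588) and astrocytes at 0.23 (0.0517). Tenm3 was called higher in 2 types without B6 library 2 and in 1 type without B6 library 3, D2 library 2 or D2 library 3.

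Of the latrophilins, Adgrl1 was called in 0 of 17 cell types by edgeR and by DESeq2 and had an unadjusted p under 0.05 in 0, with fold changes between -0.66 and 0.23. Adgrl2 was lower in Exc-CA1-Fras1 (202 and 222 CPM against 148 and 157, -0.48 ± 0.0926, adjusted p = 2.66e-04), Exc-Gpc6 (279 and 267 against 184 and 214, -0.47 ± 0.109, 0.00132) and Exc-CA1-Galntl6 (-0.27). In microglia it was higher, at 159 and 154 CPM in B6 and 270 and 261 in D2 (0.76 ± 0.155, 0.00308). DESeq2 did not call the microglial difference (0.201).

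In those microglial columns the 15 neuronal markers summed to 321 CPM in B6 against 195 in D2, and those of microglia to 3460 and 3924. Adgrl2 was thus higher where neuronal markers were lower, and the part of that shift was not tested.

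Adgrl3 was lower in 4 excitatory types by small amounts and higher in 1. In Exc-CA1-Galntl6 it was at 1802 and 1779 CPM in B6 and 1478 and 1517 in D2 (-0.26 ± 0.0453, adjusted p = 2.43e-04). Exc-CA1-Fras1 (-0.24), Exc-CA3 (-0.35) and Exc-Gpc6 (-0.25) were also lower. Of 9 alternatives, the Exc-CA3 call was lost in 2 (without B6 library 2, adjusted p = 0.0627, and without D2 library 3, 0.0510) and the Exc-Gpc6 call in 6 (0.0586 to 0.350, DESeq2 and 3 omissions of a library among them). Exc-DG was higher by 0.17 (558 and 531 against 630 and 599, 0.0485), a call that 5 of 9 alternatives did not keep.

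Seen by cell type, Exc-CA1-Fras1 and Exc-CA1-Galntl6 had 6 members lower and 1 higher (Flrt1) each. Tenm2, Adgrl2, Adgrl3, Flrt2 and Flrt3 were lower in both, joined by Tenm4 in the first and Tenm3 in the second. In Exc-DG 2 were higher (Tenm4 and Adgrl3) and 2 lower (Tenm1 and Flrt3).

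Whether a strain difference itself varied between cell types was tested with the cell type by strain interaction in a fit of all columns, in which 16.4% of transcripts passed. It passed for Tenm4, Flrt2, Adgrl2, Tenm2 and Adgrl3 (adjusted p = 1.10e-10, 2.60e-08, 6.85e-06, 0.00181 and 0.00221). It did not for Tenm3 (0.0957), Tenm1 (0.137), Flrt3 (0.188), Adgrl1 (0.372) or Flrt1 (0.464). These negatives were not all stable. With no filter on low counts Tenm3 and Tenm1 passed (3.93e-08 and 4.89e-05), and some fits without a library passed for Tenm3, Tenm1 and Flrt3. The Tenm2 result was lost with the 12 neuronal types alone (0.257) and without B6 library 3 (0.0709). With all libraries, a difference in the strain effect on Flrt3 or Flrt1 between cell types was therefore not shown, which does not make their changes equal.

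Genes that work with the system were read from lists set by role. Of 11 binding partners (the Unc5 receptors, neurexins and others), 9 pairs of gene and cell type were higher and 44 lower of 174 tested, with a median log2 fold change of -0.15, beside 0.01 for all transcripts. The shares to read these counts against are the 7.22% higher and 9.31% lower given above for all transcripts. Among 10 genes of latrophilin signalling and its scaffolds, 2 were higher and 27 lower of 166 (median -0.13). Other synaptic leucine-rich repeat genes had 11 higher and 60 lower of 324 (-0.09), and other adhesion G protein-coupled receptors 4 and 23 of 157 (-0.10).

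In Exc-DG the partner with the largest change was Unc5d, a receptor that binds FLRT proteins. It was at 93.0 and 97.8 CPM in B6 and 308 and 281 in D2 (1.63 ± 0.0765, adjusted p = 6.37e-10), in the cell type with most Flrt3. Unc5c (-0.38) and Unc5a (-0.30) were lower. Unc5d was also higher in Exc-CA1-Galntl6 (1.03) and Exc-CA3 (0.77), but lower in Exc-Cdh12 (-0.67), Exc-Gpc6 (-0.39), Inh-CGE (-0.35), astrocytes (-0.57), microglia (-1.78) and oligodendrocytes (-0.97).

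From the other lists, Lrrtm3, a postsynaptic partner of neurexins, was lower in Exc-DG (137 and 114 CPM against 88.8 and 84.6, -0.53), and Slitrk2 and Slitrk3 were higher (0.50 and 0.48). Adgra3 rose from 5.06 and 6.81 CPM to 15.8 and 15.7 (1.40), and Adgrb3, a receptor for C1q-like proteins, was lower (-0.38). Shank1, a postsynaptic scaffold, Gnao1, a G protein subunit, and Arhgef12, an activator of RhoA, were also lower (-0.40, -0.33 and -0.27).

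Total snATAC-seq counts per library were between 90684494 and 122322471. Open chromatin was tested in the deepest columns, Exc-DG and Exc-CA1-Galntl6, over all peaks with edgeR. In Exc-DG, 87 of 883 peaks within the members or at their starts were called, 72 higher and 15 lower in D2 (9.85%), where 5.97% of all peaks were called, 3.39% higher and 2.58% lower. In Exc-CA1-Galntl6, 41 of 884 were called, 19 higher and 22 lower (4.64%), beside 5.26% of all peaks, 2.52% higher and 2.74% lower. The difference between the 2 cell types was not tested.

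Tenm4 held 47 of the 87 calls in Exc-DG. Of its 157 tested peaks 42 were more open and 5 less open in D2 (29.9% called), with a median log2 fold change of 0.53. In Exc-CA1-Galntl6 it had 8 higher and 11 lower of 159 (11.9%), median 0.07. Summed over the gene, its peaks held 379 and 360 CPM in B6 and 496 and 488 in D2 in Exc-DG, a log2 ratio of 0.41, while in the other 14 cell types that ratio lay between -0.03 and 0.17 with no test. In astrocytes, where Tenm4 transcripts were higher in D2, the sums were 592 and 503 against 617 and 615, from only 199 nuclei over the 4 libraries.

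**Figure D4:**
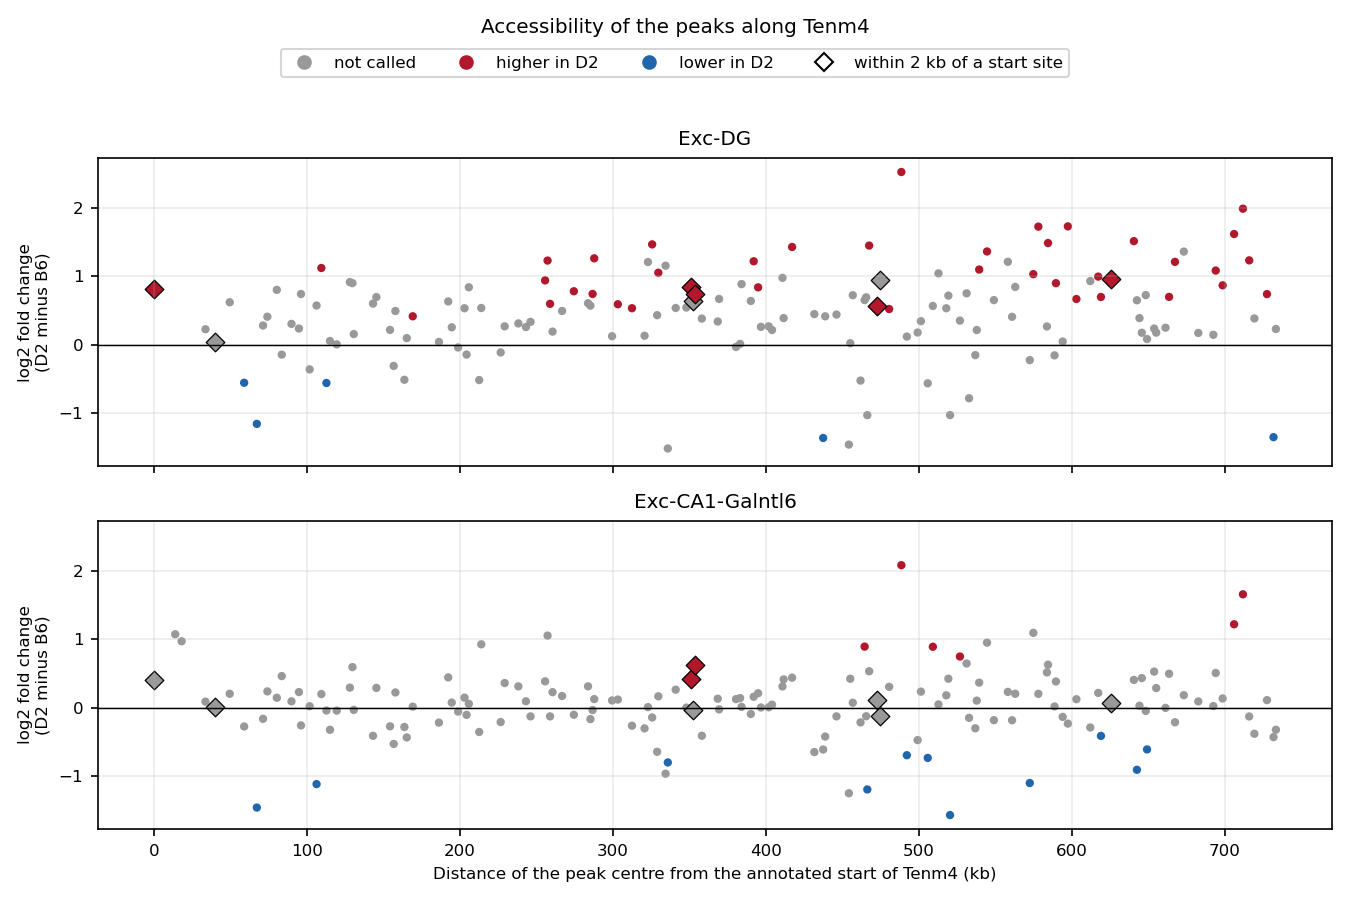
Log2 fold change in accessibility, D2 against B6, of the peaks of Tenm4 by distance in kb from its annotated start, in Exc-DG (top) and Exc-CA1-Galntl6 (bottom), with diamonds within 2 kb of an annotated start site. In Exc-DG 42 peaks are higher and 5 lower, mostly beyond 250 kb, and in Exc-CA1-Galntl6 8 are higher and 11 lower.

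The start sites of Tenm4 did not move as one. At the most upstream start the peak chr7:96170696-96171950, which holds the upper Tenm4 sequence shown above, was at 2.88 and 2.77 CPM in B6 and 4.58 and 5.30 in D2 in Exc-DG (0.82 ± 0.177, adjusted p = 2.26e-04). The much more open peak chr7:96209656-96213310, which holds the lower sequence, was at 55.3 and 57.3 CPM in B6 and 58.0 and 58.0 in D2 (0.04 ± 0.0604, 0.817). An internal start at chr7:96795989-96798211 was at 7.90 and 6.55 against 14.6 and 13.8 (0.96 ± 0.112, 3.44e-14).

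All 5 called start-site peaks of the members in Exc-DG, of 43 tested, belonged to Tenm4, and the others lay at chr7:96521602-96522500 (0.84), chr7:96524339-96525102 (0.74) and chr7:96642847-96644599 (0.56). DESeq2 called 1 of the 5. In Exc-CA1-Galntl6 the 2 called of 43 were the first and second of these 3 (0.42 and 0.62), and DESeq2 called neither. Along the gene, in bins chosen after the values were seen, 3 peaks were higher and 3 lower of 44 from -10 to 250 kb of the start, 19 and 1 of 58 from 250 to 500 kb, and 20 and 1 of 55 from 500 to 760 kb.

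The start of Flrt3 showed no such difference. Its peak chr2:140670332-140671812, over the Flrt3 sequence shown above, was at 30.9 and 32.6 CPM in B6 and 29.5 and 32.2 in D2 in Exc-DG (-0.03 ± 0.0717, adjusted p = 0.901). In Exc-CA1-Galntl6 it was at 25.0 and 25.0 against 29.7 and 28.6 (0.22 ± 0.0858, 0.139), while Flrt3 transcripts were lower in both cell types. For Adgrl1, Flrt1, Flrt2 and Flrt3 together, edgeR and DESeq2 called 0 of the 76 peak tests of both cell types, and 8 had an unadjusted edgeR p under 0.05.

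Elsewhere in the family Tenm2 had 22 peaks higher and 8 lower of 286 in Exc-DG (10.5% called, beside 5.97% of all peaks) and 10 of each in Exc-CA1-Galntl6 (6.99%, beside 5.26%). Adgrl3 had 7 higher and 1 lower of 200 in Exc-DG (4.0%, under the 5.97% of all peaks) and 0 called in Exc-CA1-Galntl6 by edgeR or DESeq2 (15 with an unadjusted p under 0.05). Between cell types, transcript level and summed accessibility had a Pearson correlation over 15 types of 0.86 for Adgrl2, 0.85 for Flrt2, 0.82 for Tenm1 and Tenm3 and 0.80 for Tenm2. It was 0.69 for Flrt1, 0.64 for Adgrl3, 0.49 for Flrt3, 0.47 for Tenm4 and 0.32 for Adgrl1. Per the paper, the chromatin nuclei took their cell types from the RNA annotation, by matching expression to accessibility over genes. Transcript level and accessibility across cell types are therefore not independent, and these values are descriptions. For Adgrl2 the main start-site peak, chr3:148986927-148990558, held 16.1 ± 1.36 CPM in Exc-DG and 20.5 ± 1.72 in Exc-CA3 but 44.4 ± 1.38 in Exc-CA1-Galntl6 and 59.0 ± 5.79 in Exc-Gpc6, in the order of its transcripts in those types.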

How the data were processed

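The authors deposited raw counts of snRNA-seq reads (whole numbers per gene symbol) and of snATAC-seq fragments (per peak), summed over the nuclei of each cell type and library, and the number of nuclei in each sum. Per the paper's methods they used Cell Ranger 6.0.2 with introns, Cell Ranger ATAC 2.0.0 and Seurat 4.0.5, with D2 aligned to a copy of mm10 carrying its single-base variants, and peaks called per sample and merged. They removed doublets with DoubletFinder before summing, and no doublet caller was run here, where only the sums were used. The strains were aligned to different references, and 3022 symbols had 50 or more counts in D2 and 0 in B6, and 129 the reverse. The cause was not tested, and shares over transcripts use the 24691 symbols counted in both. The annotation release and the use of strand are not given in the sources used here.

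Columns were placed by the strain and library number in their names (2 and 3, where the sample labels number replicates 1 and 2). No sample column was set aside (0), and 16 methylation samples were not analysed here. Each cell type was fitted alone in edgeR 4.0.16 (R 4.3.3) with TMM scaling, its default filter on low counts, the quasi-likelihood test and Benjamini-Hochberg adjustment. Peaks needed 10 counts over the 4 libraries, and start-site peaks lay within 2000 bp of a start. The interaction fit had the library as a block. DESeq2 1.42.0, other scaling, no filter, a replicate block and leaving out each library were alternatives. Figures used matplotlib 3.10.9. A replicate is a pool of animals, so the tests weigh a strain difference against the spread between 2 pools per strain. edgeR moderates that spread over all transcripts or peaks of a fit. An exact permutation test of 2 against 2 cannot go below 0.33.

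Members, selected by name, and gene lists were chosen with earlier results of these data known. Besides the members, the text names from each list up to 3 genes with the largest called change in Exc-DG, and for each member the 2 transcripts most like it among those at 10 CPM or more on average. For Flrt2 these are not reported here. Other overlapping genes were named after their values were seen. On simulated data with known log2 changes of 1, edgeR recovered 99% in Exc-DG (2.94% of calls false, 17313 transcripts), 97% in NN-Astro (2.02%, 14371), 44.5% in NN-VLMC (0%, 7757), 40.5% for the interaction (3.57%, 20333) and 74% of peaks in Exc-DG (5.13%, 296051). Every simulated feature of a comparison had the same spread, with no library effect, and changed features were drawn from those above a set count. For the interaction and the peaks that spread was set by hand and not fitted, and for the interaction it was above the fitted one. Smaller changes were not simulated, so these shares need not hold for the real data.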

Additional observations from a re-analysis of the deposited data

Results flagged for a closer look

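For 5 members the strain difference itself differed between cell types, by the cell type by strain interaction in edgeR over all columns. Tenm4 (adjusted p = 1.10e-10) was higher in D2 in Exc-DG and NN-Astro and lower in NN-ODC and Exc-CA1-Fras1. Flrt2 (2.60e-08) was lower in 9 cell types and higher in NN-Astro. Adgrl2 (6.85e-06) was lower in 3 excitatory types and higher in NN-MGC. Tenm2 (0.00181) was lower in 5 cell types and higher in NN-ODC. Adgrl3 (0.00221) was lower in 4 excitatory types and higher in Exc-DG. DESeq2 did not keep the higher calls of Flrt2, Adgrl2, Tenm2 and Adgrl3. The interaction tests all cell types together and does not say which pair of them differs.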

How the results depend on the processing

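None of the 58 called pairs of member and cell type reversed in any alternative, 20 were called in all of them, and 28 in all but those that leave out a library. With DESeq2 calls fell from 58 to 29 for the members (15 to 2 higher, 43 to 27 lower), 53 to 34 for partners, 71 to 42 for leucine-rich repeat genes, 27 to 14 for adhesion receptors and 29 to 16 for latrophilin signalling. Calls over all transcripts counted in both strains fell in every cell type, from 4418 to 2235 in Exc-DG and 479 to 63 in NN-VLMC. With DESeq2 the peaks called fell from 87 to 31 (start sites 5 to 1) in Exc-DG and from 41 to 12 (2 to 0) in Exc-CA1-Galntl6. Over all peaks, calls fell from 17758 to 4849 in Exc-DG and from 15713 to 4020 in Exc-CA1-Galntl6. Leaving out each of the 4 libraries gave 38 to 52 member calls (8 to 14 higher, 30 to 38 lower), 36 to 54 for partners, 41 to 73 for leucine-rich repeat genes, 18 to 28 for adhesion receptors and 15 to 33 for signalling. It gave 54 to 72 peaks in Exc-DG (start sites 2 to 4) and 24 to 32 in Exc-CA1-Galntl6 (start sites 0 to 3). Counts moved by over 1.5 times without D2 library 2 (38 member calls), without D2 library 3 (41 for leucine-rich repeat genes, 15 for signalling, 56 peaks and 2 start sites in Exc-DG), without B6 library 3 (54 peaks and 2 start sites in Exc-DG, 25 and 0 in Exc-CA1-Galntl6) and without B6 library 2 (3 start sites in Exc-DG, 24 peaks in Exc-CA1-Galntl6). Start sites within 500 bp left 1 of the 2 in Exc-CA1-Galntl6. As counts per nucleus, 4 of 10 members kept their highest cell type, and with TMM over all columns together 7 did, and without either B6 library the highest type of Adgrl2 was NN-MGC. The interaction gave 4 to 7 members. Fewer samples lower the power of fits without a library. In Inh-CGE the fits without D2 library 2 or without D2 library 3 called no transcript at all. No Inh-CGE pair could therefore hold in every alternative. The cause of the DESeq2 difference was not tested.

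Library numbers did not pair the strains, since deviations of same-numbered libraries correlated between -0.20 and 0.09. With the library number as a replicate block 54 members' pairs were called, 57 of partners, 70 of leucine-rich repeat genes, 28 of adhesion receptors and 27 of signalling, and 84 and 41 peaks. Depth limits CR-CR and NN-VLMC, and non-neuronal chromatin, most.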
